A study of Mus musculus with 24 samples.

Results

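The comparison described here is that of TTPdeltaARE with WT in young MPP3 cells. It holds 8 of the 24 libraries of the series, 4 labelled Y-WT MPP3 and 4 labelled Y-TTPdeltaARE MPP3, which were chosen by their titles alone. All 8 came from bone marrow of young, untreated male mice. The mutants were homozygous and the WT animals their littermates. In TTPdeltaARE animals a short AU-rich stretch was deleted from the Zfp36 gene in the germline, so the marrow around the progenitors carried the deletion too. MPP3 cells are multipotent progenitors that lean towards granulocytes and monocytes, and they were sorted as lineage-negative, Sca1-positive, Kit-positive cells with CD48 but without Flk2 and CD150. The series also holds HSC libraries of young and middle-aged mice of both genotypes. Of these, the 8 of young HSCs are used below for the test of whether an effect differed between the cell types, for a check of sort markers, and in an alternative fit.

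Tristetraprolin (TTP), the product of Zfp36, binds AU-rich elements in mRNAs and brings the decay machinery to them. Its best known targets are mRNAs of inflammatory cytokines and chemokines. Innate immune cells detect microbial nucleic acids with endosomal Toll-like receptors and with cytosolic sensors, answer with interferons and chemokines, and clear material through Fc receptors and lysosomes. In marrow progenitors such genes are usually low and rise as the cells commit to the myeloid or dendritic lineage.

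Between 28633531 and 38620397 reads were assigned to genes in a library. Levels are given as CPM, counts scaled to library size with TMM factors. Over 12850 genes, the first principal component (PC1) of log2 CPM with a prior count of 2 held 42.1% of the variance. The Y-WT libraries scored between -38.0 and -23.0 on it and the Y-TTPdeltaARE libraries between 11.1 and 62.5, so the genotypes did not overlap. Y-TTPdeltaARE replicate 4 stood apart. It had the highest score on PC1, the lowest on PC2 (-39.6), and the highest share of mitochondrial counts (1.40%, against 0.779% to 1.04% in the other 7). Counts of called genes are therefore also given over the 7 libraries without it, and values of single genes where that changed a call. Immunoglobulin and T-cell receptor genes took 9.42% of the counts of Y-WT replicate 1 and between 0.689% and 4.96% of the others. The labels do not say whether replicates were separate animals, so p-values measure the spread between these samples, which may in part be technical.

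**Figure D1:**
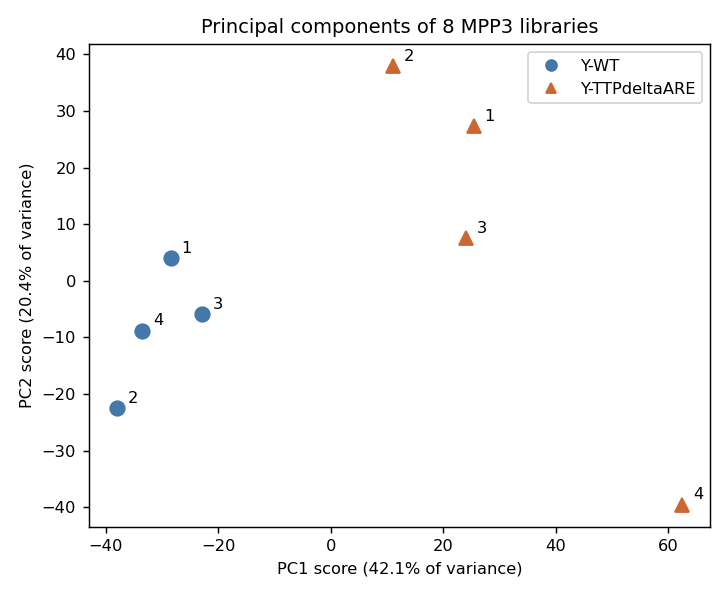
Scores of the 8 MPP3 libraries on the first (x axis, 42.1% of the variance) and second (y axis, 20.4%) principal components of log2 CPM, in units of the score. Circles are Y-WT, triangles are Y-TTPdeltaARE, and the digits are replicate numbers. The genotypes separate on PC1, and Y-TTPdeltaARE replicate 4 lies at 62.5 on PC1 and -39.6 on PC2, away from the other 3 of its group.

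Genes of the sort gate were compared with the young HSC libraries, over one scaling of 16 libraries. Mean CPM of Cd48 was 157 in Y-WT MPP3 and 9.32 in Y-WT HSC, while Slamf1, which encodes CD150, was at 2.23 and 57.1. Both differences have the direction of the sort. Flt3, which encodes Flk2, was at 503 in Y-WT MPP3 and 50.7 in Y-WT HSC, although the sort took Flk2-negative cells. Between the genotypes, 8 genes were tested on a list of the gate genes with Cd34, Il7r and Fcgr3 added. These added genes are not among the markers of the sort given above. Only 1 of the 8 was called in MPP3 cells, the added Fcgr3, and 5 of the 8 had a positive log2 fold change. Kit, the receptor for stem cell factor, had 1247, 1182, 1208 and 1458 CPM in Y-WT and 883, 1058, 1058 and 437 CPM in Y-TTPdeltaARE. The ranges do not overlap and replicate 4 was the lowest, but the log2 fold change of -0.57 ± 0.24 (SE) was not called (adjusted p = 0.382 by edgeR's quasi-likelihood test). Flt3 had 475, 414, 489 and 548 CPM in Y-WT and 599, 692, 606 and 625 CPM in Y-TTPdeltaARE. It was higher in every mutant library and was not called either (0.39 ± 0.11, adjusted p = 0.162).

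Zfp36 itself lies at chr7:28376784-28380253 (GRCm38, minus strand, protein-coding). It had 33.5, 19.3, 25.3 and 29.5 CPM in Y-WT and 108, 93.7, 76.6 and 95.5 CPM in Y-TTPdeltaARE. Every mutant library was above every WT library, which matches the labels. The fold change was 3.47 (log2 1.80 ± 0.18 (SE), n = 4 and 4, adjusted p = 6.5e-04), and a two-sided exact permutation test gave p = 0.0286, the smallest that 4 against 4 allows. Without replicate 4 the log2 fold change was 1.77 (adjusted p = 0.0026). The deletion removes only a short stretch at the 3′ end, so counts over the whole gene measure the mRNA level and do not show the deletion. The related decay factors did not pass the test. Zfp36l1 gave a log2 fold change of 0.19 ± 0.19 and Zfp36l2 of -0.12 ± 0.13. Zfp36l3 was too low to be tested.

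A gene counts as called below where 3 limits were met: more than 1.2-fold change, more than 1.5 in average logCPM (the log2 of its CPM over all libraries), and less than 0.05 in p after Benjamini-Hochberg adjustment. Of 19023 genes tested over 8 libraries, 300 were called higher in Y-TTPdeltaARE (1.58% of those tested) and 26 lower (0.137%). The 7 libraries without replicate 4 gave 309 higher (1.49% of 20733) and 38 lower (0.183%). Of the genes called higher, 257 were shared, which is 85.7% of the 8-library calls and 83.2% of the 7-library calls. Of the genes called lower, 21 were shared, 80.8% and 55.3%. The CPM of 299 of the 300 higher and of all 26 lower genes did not overlap between the groups over 8 libraries, against 9.58% of all tested genes. The genes were called on these same 8 libraries, so this separation follows largely from the selection and is no separate evidence for the calls. The changes were also unequal in size. The median log2 fold change was 1.81 for genes called higher and -0.82 for genes called lower, and over all tested genes it was 0.04. The counts depended on the test, since DESeq2 called 552 higher and 183 lower, and on single libraries, since without Y-TTPdeltaARE replicate 1 only 179 higher and 6 lower genes were called.

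Genes of dendritic cells and of antigen presentation by MHC class II made up 28 of the 300 genes called higher, 18 of 27 tested dendritic cell markers and 10 of 11 MHC class II genes. The summed CPM of the 28 listed dendritic markers lay between 488 and 601 in Y-WT and between 1286 and 1839 in Y-TTPdeltaARE. The other 272 called genes lie outside both lists. Of these, 111 belong to another of the 35 lists written for this comparison, and the changes in these programs are described below. Many of these genes are used by dendritic cells as well, and the part of the dendritic markers in their change was not tested. In bulk libraries, more cells of a type and more RNA per cell cannot be told apart.

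**Figure D2:**
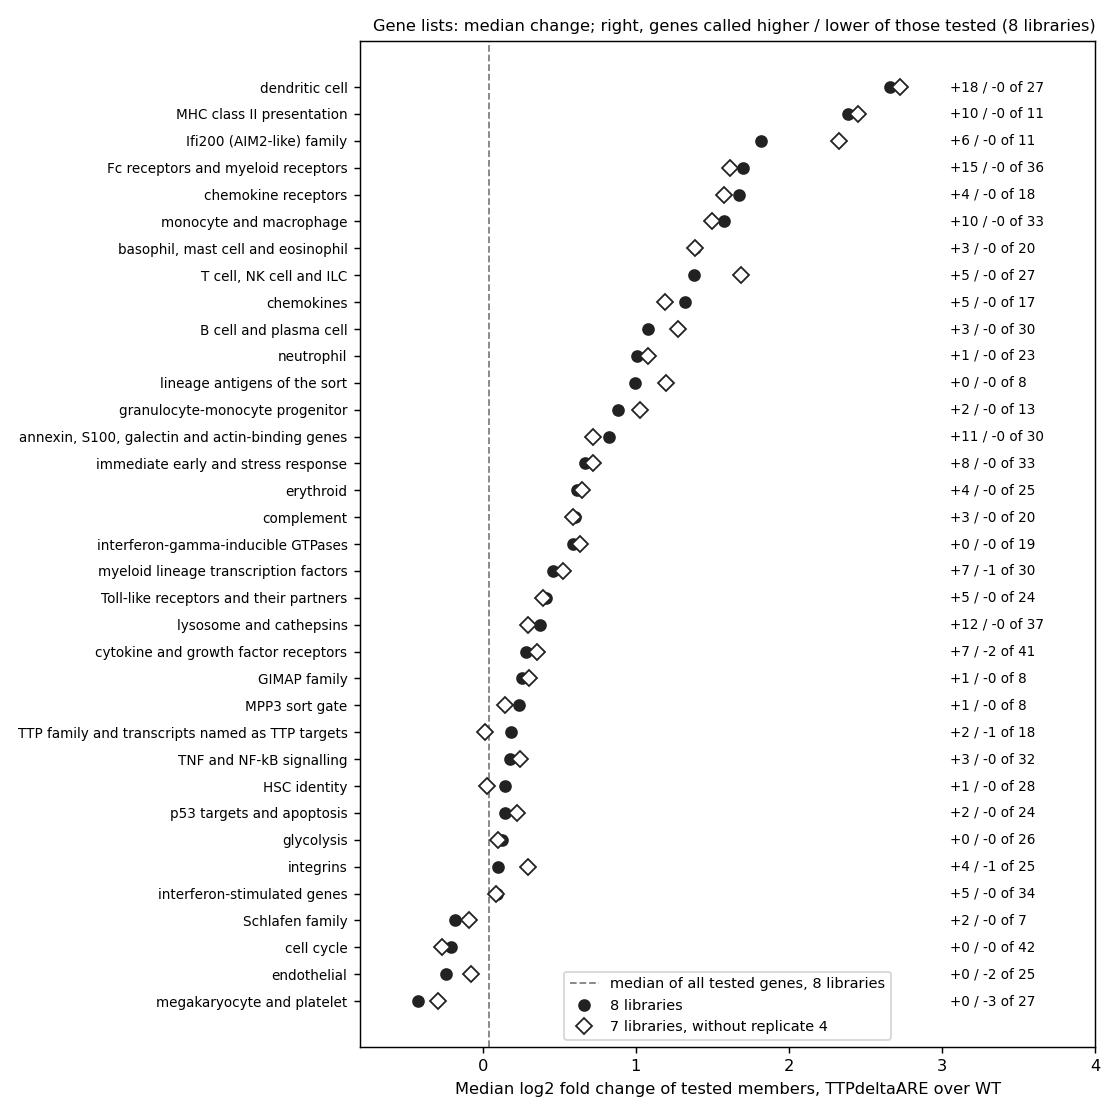
Median log2 fold change, TTPdeltaARE over WT (x axis), of the tested members of each list (y axis), over 8 libraries (filled) and over 7 without Y-TTPdeltaARE replicate 4 (open). Text at the right gives the members called higher and lower of those tested. Dendritic cell and MHC class II lists have the highest medians, at 2.66 and 2.39, and megakaryocyte and platelet genes the lowest, at -0.42.

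Outside the dendritic and MHC class II lists, the 10 called genes with the largest increases whose groups did not overlap were Slfn1, Tlr13, Gpr141b, Cxcl9, Gpr34, Ccl8, Cd226, Plbd1, Olfm1 and Tlr11. Their log2 fold changes lay between 4.51 and 6.30. Except for Plbd1, each was at or below 2.50 CPM in every Y-WT library. Slfn1, a Schlafen gene (chr11:83116849-83122670, plus strand), had 0, 0.218, 0.0294 and 0.0510 CPM in Y-WT and 9.15, 8.28, 4.13 and 3.55 CPM in Y-TTPdeltaARE. The fit gave a log2 fold change of 6.30 ± 0.73 (adjusted p = 0.0014), which rests on few counts in the Y-WT libraries. Cxcl9, a chemokine that interferon-gamma induces and that attracts CXCR3-bearing cells (chr5:92321347-92328079, minus strand), had 0.491, 1.14, 1.23 and 1.23 CPM in Y-WT and 40.9, 25.8, 30.7 and 18.3 CPM in Y-TTPdeltaARE (log2 fold change 4.81 ± 0.35, adjusted p = 1.1e-04). Its groups were more than an order of magnitude apart in every pair of libraries. Plbd1, a phospholipase B-like lysosomal protein (chr6:136612070-136661928, minus strand), was the most abundant of the 10, with 12.0, 4.92, 9.55 and 28.4 CPM in Y-WT and 372, 218, 289.6 and 376 CPM in Y-TTPdeltaARE (log2 fold change 4.51 ± 0.50, adjusted p = 0.0012). All 10 were also called without replicate 4. With each of the 8 libraries left out in turn, 9 kept an adjusted p under 0.05, and Ccl8 did so in 4 of 8.

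The 10 leading genes among those called lower were Phldb2, Pdgfrb, Tek, Tgfbr3, Il1r1, Sox6, Prx, Dock1, Klhl4 and Rab27b. They fell by 0.93 to 1.41 on the log2 scale, far less than the leading genes rose. Tek, the angiopoietin receptor found on stem cells and endothelium (chr4:94739289-94874976, plus strand), had 34.0, 36.8, 28.8 and 35.7 CPM in Y-WT and 17.0, 13.7, 9.82 and 16.0 CPM in Y-TTPdeltaARE (log2 fold change -1.26 ± 0.18, adjusted p = 0.0046). Sox6, a transcription factor of erythroid and megakaryocytic cells (chr7:115470872-116038796, minus strand), had 57.1, 52.3, 60.3 and 70.2 CPM in Y-WT and 33.0, 26.9, 30.0 and 28.4 CPM in Y-TTPdeltaARE (log2 fold change -1.02 ± 0.12, adjusted p = 0.0019). In both genes the mutant libraries lay close together and well below the WT libraries. Tgfbr3, a co-receptor for TGF-beta, fell by 1.19 ± 0.18 and Il1r1, the signalling receptor for interleukin 1, by 1.02 ± 0.19 on the log2 scale. Tek, Tgfbr3, Sox6 and Rab27b kept an adjusted p under 0.05 with each library left out in turn. Pdgfrb and Klhl4 were not called without replicate 4 (adjusted p = 0.0537 and 0.0769), and Phldb2, Pdgfrb, Il1r1, Prx, Dock1 and Klhl4 each lost the adjusted p of 0.05 when some library was left out, up to 7 of 8 times for Klhl4.

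**Figure D3:**
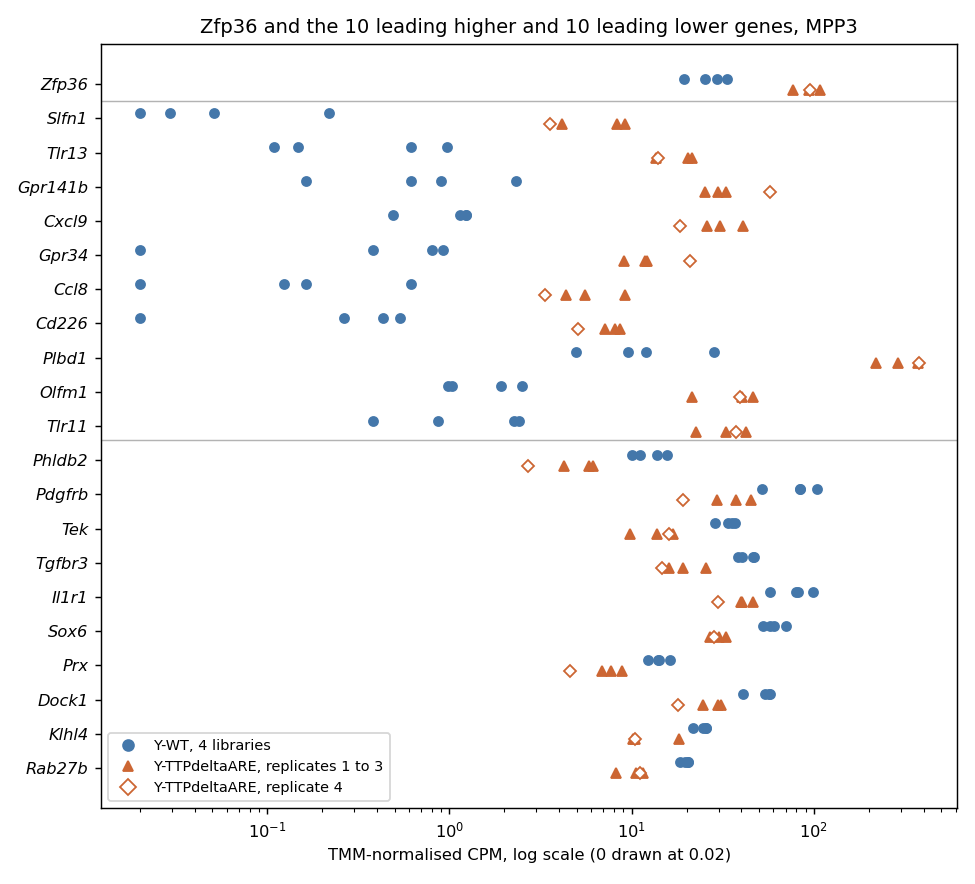
TMM-normalised CPM (x axis, log scale, with 0 drawn at 0.02) of Zfp36, the 10 leading higher and the 10 leading lower genes (y axis) in each MPP3 library. Circles are Y-WT, filled triangles Y-TTPdeltaARE replicates 1 to 3, open diamonds replicate 4. In each gene the groups are apart, by more in the higher genes (log2 fold changes of 4.51 to 6.30) than in the lower ones (-1.41 to -0.93).

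The interferon programs did not move as a block. Of 34 tested interferon-stimulated genes, 5 were called higher and 0 lower by edgeR (at an unadjusted p under 0.05, 9 and 1; by DESeq2, 9 and 0; by the likelihood ratio test, 9 and 0), and their median log2 fold change of 0.09 was near the 0.04 of all genes. The 5 were Mx1 and Zbp1, antiviral effectors, Irf7, the regulator of type I interferon genes, Samhd1, which depletes deoxynucleotides, and Ifi27l2a. Irf7 had 36.2, 46.04, 43.3 and 39.5 CPM in Y-WT and 115, 83.9, 72.4 and 79.6 CPM in Y-TTPdeltaARE, a log2 fold change of 1.09 ± 0.16 (adjusted p = 0.0053). Mx1 rose by 1.93 ± 0.28 on the same scale (adjusted p = 0.0053). Zbp1 (1.11 ± 0.23, adjusted p = 0.0411) and Ifi27l2a (1.34 ± 0.27, adjusted p = 0.0365) were close to the limit, and lost it when single libraries were left out, in 6 and 4 of 8 cases. In contrast, Isg15, the ubiquitin-like protein of the type I response and a common gauge of it, had 10.3, 13.9, 10.3 and 10.5 CPM in Y-WT and 24.1, 15.8, 16.5 and 21.3 CPM in Y-TTPdeltaARE. It was higher in every mutant library, but at a log2 fold change of 0.79 ± 0.18 it was not called (adjusted p = 0.0621). Ifit1 was at -0.10 ± 0.18 (adjusted p = 0.868). Isg15 and Ifit1 were chosen after their values were seen.

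Calls among the GTPases that interferon-gamma induces, which attack vacuoles of intracellular microbes, depended on replicate 4. Of 19 tested, 0 were called over 8 libraries by edgeR (at an unadjusted p under 0.05, 11 were higher; DESeq2 called 9 and the likelihood ratio test 8). Over 7 libraries 5 were called, Gbp2, Gbp4, Gbp9, Iigp1 and Tgtp1, which are named here after their values were seen. The list median log2 fold change was 0.59 over 8 libraries, with 18 positive and 1 negative, against 54.7% positive among all tested genes. Without replicate 4 the list median was 0.64, with 19 positive and 0 negative. The summed CPM of the 20 listed GTPases was 895, 904, 933 and 947 in Y-WT and 1555, 1354, 1201 and 897 in Y-TTPdeltaARE. Replicate 4 thus lay within the WT range and the other 3 above it. Iigp1 had 68.2, 63.2, 67.3 and 78.4 CPM in Y-WT and 174, 144, 122 and 80.3 CPM in Y-TTPdeltaARE, with a log2 fold change of 0.91 ± 0.21 over 8 libraries (adjusted p = 0.0633) and 1.07 ± 0.14 over 7 (adjusted p = 0.0057). The 3 most abundant members, Irgm1, Tgtp2 and Gbp7, were not called in either fit, with log2 fold changes of 0.37 ± 0.11, 0.24 ± 0.11 and 0.06 ± 0.19 over 8 libraries. The receptor for interferon-gamma rose in both of its chains. Ifngr1, the ligand-binding chain, had 169, 155, 156 and 174 CPM in Y-WT and 268, 334, 260.3 and 267 CPM in Y-TTPdeltaARE (log2 fold change 0.79 ± 0.12, adjusted p = 0.0062), and Ifngr2 rose by 0.67 ± 0.11 (adjusted p = 0.0097).

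The Ifi200 genes, which encode AIM2-like proteins that bind DNA in the cytosol and nucleus, were called higher in part. They lie side by side on chromosome 1, between 173350879 and 174031810 (GRCm38). Of 11 tested, 6 were called higher and 0 lower, with a median log2 fold change of 1.82 (2.33 over 7 libraries, where 6 of 12 were called). One of the 6, Ifi205, is also on the dendritic list, and 5 of 10 were called outside it. Ifi204 had 1.29, 1.55, 1.94 and 1.68 CPM in Y-WT and 16.6, 8.71, 8.30 and 5.71 CPM in Y-TTPdeltaARE (log2 fold change 2.60 ± 0.33, adjusted p = 0.0026). Ifi207, Ifi209 and Ifi211 rose by 2.61 ± 0.33, 3.03 ± 0.46 and 3.17 ± 0.45, and Ifi213 by 1.82 ± 0.32. Their neighbour Mndal, at 118, 137, 147 and 144 CPM in Y-WT and 174, 156, 154 and 168 CPM in Y-TTPdeltaARE, gave 0.25 ± 0.11 (adjusted p = 0.384), and Aim2 gave 0.14 ± 0.20. The 3 most abundant members of the cluster, Ifi203, Mndal and Aim2, were thus not called, and the 6 called members were each below 11 CPM in every Y-WT library. These genes are close copies of each other, and how the counting shared reads between copies is not stated, so the split between members is uncertain. The same holds for the Schlafen, GIMAP, Bcl2a1 and Fcgr genes below.

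The sequences before these genes are shown because members that moved and members that did not share a motif there. The motif GAAANNGAA, a pair of the GAAA units that interferon regulatory factors recognise, was searched on both strands (TTCNNTTTC on the other) in the 250 bases before each start in the RefSeq promoter table (GRCm38.p6). It was found in 7.13% of all 32851 promoters. Counted by gene, where a match in any promoter of the gene suffices, it stood before 8.18% of 27025 genes. The counts below are by gene. Of the Ifi200 genes with a promoter in the table, 4 of the 5 called and 4 of the 5 tested and not called held it. The 100 bases before the start are printed 5′ to 3′ on the minus strand, on which the 6 genes lie, with each match in capitals. The positions are chr1:173741810-173741909 (Ifi207), chr1:173913047-173913146 (Ifi211) and chr1:173599273-173599372 (Ifi213), all called, chr1:173880188-173880287 (Mndal) and chr1:173535958-173536057 (Ifi214), not called, and chr4:156200819-156200918 for Isg15, not called.
Ifi207: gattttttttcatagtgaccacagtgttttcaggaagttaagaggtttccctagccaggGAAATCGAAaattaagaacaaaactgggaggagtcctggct
Ifi211: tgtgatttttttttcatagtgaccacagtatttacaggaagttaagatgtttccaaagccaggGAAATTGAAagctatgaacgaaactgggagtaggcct
Ifi213: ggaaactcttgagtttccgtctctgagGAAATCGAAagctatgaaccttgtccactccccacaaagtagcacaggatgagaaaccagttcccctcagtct
Mndal: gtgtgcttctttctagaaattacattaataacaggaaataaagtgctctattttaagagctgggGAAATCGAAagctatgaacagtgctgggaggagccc
Ifi214: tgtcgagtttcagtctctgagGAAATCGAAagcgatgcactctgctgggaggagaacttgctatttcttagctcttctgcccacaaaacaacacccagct
Isg15: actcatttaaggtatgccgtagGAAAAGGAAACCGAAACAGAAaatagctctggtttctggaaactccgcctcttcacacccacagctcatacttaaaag
Ifi207, Ifi213, Mndal and Ifi214 hold the same match, GAAATCGAA, and Ifi211 holds GAAATTGAA. Isg15 holds 3 overlapping matches. The starts are those of RefSeq, and for Ifi207, Ifi213 and Mndal they differ from GENCODE. For Ifi207 the bases after the RefSeq start were not found in a GENCODE transcript, and GENCODE begins the gene at 173741747. The Mndal window lies inside the GENCODE span of that gene, 173849126 to 173942491. The Ifi213 window, from 173599273, reaches just inside the GENCODE gene, which begins at 173599274. Distances to the start are thus uncertain for Ifi207 and Mndal. Among the other lists, the motif stood before 12 of 21 interferon-stimulated genes that were tested and not called, and before 0 of the 2 called genes in the table, Irf7 and Samhd1. It stood before 10 of 10 GTPases tested and not called. Of the genes called higher outside the dendritic and MHC class II lists, 42 of 207 (20.3%) held it, as did 3 of 21 called lower (14.3%) and 7.68% of all tested genes with a promoter. A match is a description of the letters, and binding was not measured.

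Schlafen genes, which restrict growth and viral translation in lymphocytes and myeloid cells, split in direction. Slfn1 and Slfn2 were called higher of 7 tested, and the median of the list was -0.18. Slfn2 had 9.61, 7.04, 6.17 and 7.86 CPM in Y-WT and 63.4, 35.9, 40.0 and 36.3 CPM in Y-TTPdeltaARE (log2 fold change 2.52 ± 0.22, adjusted p = 3.5e-04). Over 7 libraries Slfn5 was also called higher (1.27 ± 0.24) and Slfn9 lower (-0.84 ± 0.16). Of 8 GIMAP GTPases of lymphocytes, 1 was called higher, Gimap7 (1.32 ± 0.17), and over 7 libraries also Gimap3.

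Of 24 tested Toll-like receptors and their partners, 5 were called higher and 0 lower, with a list median of 0.42. Tlr3, a sensor of double-stranded RNA that is also on the dendritic list, Tlr11, which binds profilin, and Tlr13, which binds bacterial ribosomal RNA, rose by 3.96 ± 0.37, 4.51 ± 0.50 and 5.22 ± 0.56 on the log2 scale. Tlr13 (chrX:106143204-106160493, plus strand) had 0.614, 0.109, 0.147 and 0.970 CPM in Y-WT and 21.6, 13.7, 20.5 and 14.0 CPM in Y-TTPdeltaARE. Unc93b1, which carries these receptors to endosomes, had 136, 98.1, 128 and 106 CPM in Y-WT and 299.6, 231, 243 and 199 CPM in Y-TTPdeltaARE (log2 fold change 1.05 ± 0.16, adjusted p = 0.0069). Its groups did not overlap, and the change was smaller than in the receptors. Over 7 libraries Tlr12 was called as well (1.08 ± 0.15). In the list of TNF and NF-kB signalling, 3 of 32 tested genes were called higher and 0 lower, and the median was 0.18. They were Traf1 and the survival gene Bcl2a1d, both known to follow NF-kB, and Cd40, a receptor of antigen-presenting cells, with log2 fold changes of 1.44 ± 0.25, 3.92 ± 0.39 and 3.28 ± 0.49.

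Of 36 tested Fc receptors and other myeloid immune receptors, 15 were called higher and 0 lower (11 over 7 libraries), with a median log2 fold change of 1.70. Slamf8, a receptor of macrophages, had 2.12, 1.09, 2.50 and 3.39 CPM in Y-WT and 43.8, 34.2, 36.1 and 45.2 CPM in Y-TTPdeltaARE (log2 fold change 4.12 ± 0.30, adjusted p = 1.2e-04). The inhibitory receptors Pirb and Fcgr2b rose by 2.42 ± 0.21 and 1.91 ± 0.18, and the activating receptors Fcgr3 and Fcgr4 by 1.99 ± 0.24 and 2.92 ± 0.33. Fcgr4 and Fcgr1 were called over 8 libraries and not over 7, where Fcgr4 fell under the logCPM limit (adjusted p = 0.0039). Both signal adaptors rose. Tyrobp had 28.0, 35.2, 50.9 and 34.0 CPM in Y-WT and 101, 73.9, 89.1 and 158 CPM in Y-TTPdeltaARE (log2 fold change 1.51 ± 0.25), and Fcer1g rose by 1.30 ± 0.21. Replicate 4 was the highest library for Tyrobp and for Fcer1g.

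Of 33 tested monocyte and macrophage markers, 10 were called higher and 0 lower (7 over 7 libraries), with a median of 1.57. Ccr2, the receptor that draws monocytes from marrow, had 6.82, 6.47, 11.9 and 9.39 CPM in Y-WT and 178, 116, 164 and 157 CPM in Y-TTPdeltaARE (log2 fold change 4.15 ± 0.24, adjusted p = 7.2e-05). Cd68 and Adgre1, which encodes F4/80, rose by 1.57 ± 0.15 and 2.59 ± 0.32. The summed CPM of the list was 971, 626, 906 and 863 in Y-WT and 1767, 1547, 1746 and 2064 in Y-TTPdeltaARE. The groups did not overlap, and the mean in Y-TTPdeltaARE was 2.12 times that in Y-WT, against 3.01 times for the dendritic list. The part of monocytes in these values was not tested.

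Of 17 tested chemokines 5 were called higher and 0 lower (median 1.32), and of 18 receptors 4 were called higher and 0 lower (median 1.67), 3 of 16 outside the dendritic list. Beside Cxcl9, the chemokines were Ccl3, Ccl6, Ccl8 and Cxcl16. Ccl6 had 6.02, 2.72, 4.41 and 4.80 CPM in Y-WT and 21.4, 31.1, 20.7 and 41.8 CPM in Y-TTPdeltaARE (log2 fold change 2.68 ± 0.30, adjusted p = 0.0012). Cxcr3, the receptor for Cxcl9, had 1.47, 0.761, 1.116 and 2.04 CPM in Y-WT and 24.0, 11.9, 21.1 and 31.6 CPM in Y-TTPdeltaARE (log2 fold change 4.03 ± 0.38, adjusted p = 4.8e-04). A ligand and its receptor were thus both higher in the same 4 libraries. Ccr7, which guides cells to lymph nodes and is also on the dendritic list, rose by 2.02 ± 0.35.

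Transcripts named as TTP targets did not fall as a list. Of 18 tested members of a list of the TTP family and such transcripts, 2 were called higher, Zfp36 and Ccl3, and 1 lower, Il1r1, with a median log2 fold change of 0.19 (0.02 over 7 libraries). Zfp36 is the gene that the deletion alters, so its call does not bear on whether targets fell. The median also counts Zfp36, Zfp36l1 and Zfp36l2, which are listed as family members. The list rests in part on transcripts that the study discusses for these samples. Ccl3 had 14.2, 9.35, 17.2 and 9.11 CPM in Y-WT and 23.9, 38.0, 24.4 and 33.1 CPM in Y-TTPdeltaARE (log2 fold change 1.26 ± 0.24, adjusted p = 0.0283), and was not called without replicate 4 (adjusted p = 0.0675). Il1r1 (chr1:40225080-40317257, plus strand) had 57.6, 99.3, 80.3 and 81.5 CPM in Y-WT and 40.5, 40.0, 46.6 and 29.6 CPM in Y-TTPdeltaARE. Each mutant library was below each WT library. Tnf, the target first described for TTP, had 2.21, 0.870, 1.47 and 2.37 CPM in Y-WT and 3.90, 2.87, 2.95 and 4.23 CPM in Y-TTPdeltaARE, below the logCPM limit and not significant (log2 fold change 1.01 ± 0.35, adjusted p = 0.263). Il1b, also a listed member under the logCPM limit, had a larger positive log2 fold change and is described with the other observations. Tnf and Il1b were named after their values were seen.

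Other cytokine receptors moved in both directions. Of 41 tested, 7 were called higher and 2 lower, Il1r1 and Tgfbr3, with a median of 0.29, and the 7 libraries gave the same numbers. Il10ra, the receptor for interleukin 10, had 22.0, 22.6, 32.6 and 17.6 CPM in Y-WT and 57.3, 57.9, 51.6 and 48.4 CPM in Y-TTPdeltaARE (log2 fold change 1.18 ± 0.18, adjusted p = 0.0069). Acvrl1, a receptor of the TGF-beta family, rose by 2.71 ± 0.27, whereas the co-receptor Tgfbr3 fell.

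Lysosomal genes rose in a subset. Of 37 tested, 12 were called higher and 0 lower (13 and 0 over 7 libraries), and 11 of these 12 lie outside the dendritic list. At an unadjusted p under 0.05, 22 were higher and 2 lower. Psap, the precursor of the saposins, had 460.4, 466, 481 and 509 CPM in Y-WT and 1257, 1017, 1114 and 1111 CPM in Y-TTPdeltaARE (log2 fold change 1.23 ± 0.10, adjusted p = 2.3e-04). Ppt1, a thioesterase, had 177, 147, 158 and 172 CPM in Y-WT and 434, 364, 416 and 473 CPM in Y-TTPdeltaARE (1.37 ± 0.12). Both were abundant and tight within the groups. The cathepsin gene Ctsh, at 22.8, 15.8, 17.8 and 19.4 CPM in Y-WT and 88.8, 80.3, 76.5 and 88.9 CPM in Y-TTPdeltaARE, rose by 2.14 ± 0.13 (adjusted p = 7.2e-05), and Ifi30, the lysosomal thiol reductase of antigen processing, by 2.64 ± 0.23. The list median was 0.37 and its summed CPM lay between 4974 and 5235 in Y-WT and between 7803 and 9980 in Y-TTPdeltaARE, a ratio of the means of 1.69.

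Of 30 tested annexins, S100 proteins, galectins and actin-binding proteins, 11 were called higher and 0 lower in both fits, with a median of 0.82 over 8 libraries. No S100 gene was among the 11. Tmsb4x, which sequesters actin monomers, had 866, 880.3, 869 and 902 CPM in Y-WT and 2260, 1757, 2067 and 4103 CPM in Y-TTPdeltaARE. Replicate 4 was far above the other mutant libraries, and without it the log2 fold change moved from 1.53 ± 0.24 to 1.19 ± 0.08 (adjusted p = 0.0075 and 2.8e-04). Tpm4, a tropomyosin, rose by 1.40 ± 0.13, Anxa2 by 1.04 ± 0.14, and Lgals3, which encodes galectin 3, by 2.07 ± 0.28. Among 25 tested integrins, 4 were called higher and 1 lower, and of the 23 outside the dendritic list 2 were called higher. Itgb7, which pairs with alpha-4 in homing to the gut, had 54.8, 44.3, 59.8 and 62.1 CPM in Y-WT and 201, 181, 155 and 134 CPM in Y-TTPdeltaARE (1.60 ± 0.16, adjusted p = 6.5e-04). The lower one was Itga2b, the platelet integrin. Of 20 complement genes, 3 were called higher and 0 lower (2 of 19 outside the dendritic list), among them Cfp, which encodes properdin, at 1.01 ± 0.16.

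**Figure D4:**
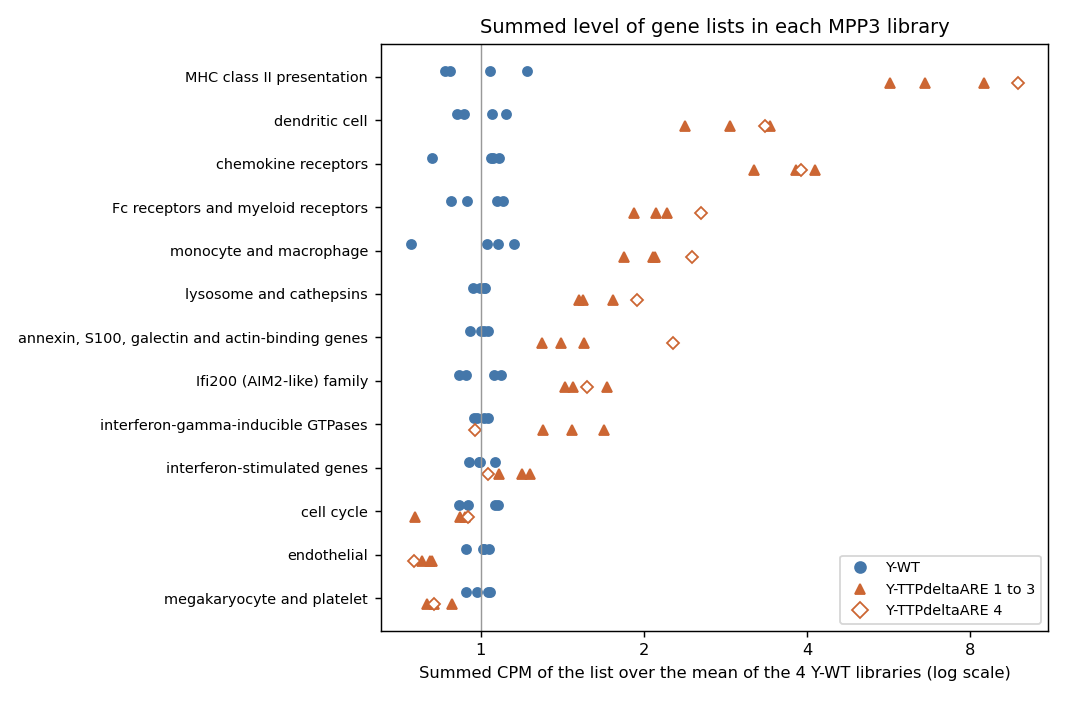
Summed CPM of 13 lists in each MPP3 library, divided by the mean of the 4 Y-WT libraries (x axis, log scale). Circles are Y-WT, filled triangles Y-TTPdeltaARE replicates 1 to 3, open diamonds replicate 4. The groups are apart for the upper 8 lists and for the endothelial and megakaryocyte lists, whereas replicate 4 lies within the WT values for the GTPases (897 summed CPM, against 895 to 947 in Y-WT).

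Klf2, a Krüppel-like factor that keeps T cells quiescent, had 0.737, 1.09, 1.06 and 1.07 CPM in Y-WT and 16.5, 11.7, 15.2 and 16.7 CPM in Y-TTPdeltaARE (log2 fold change 3.92 ± 0.21, adjusted p = 7.2e-05). It belongs to a list of immediate early and stress genes, of which 8 of 33 tested were called higher and 0 lower (5 over 7 libraries), with a median of 0.67. Klf4 and Klf6 rose by 2.90 ± 0.53 and 0.77 ± 0.14, and the antiproliferative gene Btg1 by 0.80 ± 0.12. With single libraries left out, Klf6 lost the adjusted p of 0.05 in 5 of 8 cases and Klf4 in 3. Klf4 was not called without replicate 4, where it fell under the logCPM limit (adjusted p = 0.0458). Of 24 tested p53 and apoptosis genes, 2 were called higher and 0 lower, the cell cycle inhibitor Cdkn1a (1.06 ± 0.22, lost in 7 of 8 leave-outs) and Pmaip1, which encodes Noxa (2.75 ± 0.50). Cell cycle genes were not called. Of 42 tested, 0 passed in either direction by edgeR, 11 had a positive and 31 a negative log2 fold change, and the median was -0.21. At an unadjusted p under 0.05, 2 were higher and 7 lower, while DESeq2 called 1 higher and 1 lower and the likelihood ratio test 1 and 0. Mcm6, a subunit of the replicative helicase, was at -0.26 ± 0.14. Of 26 glycolytic genes, 0 were called by edgeR over 8 libraries (at an unadjusted p under 0.05, 5 higher and 1 lower; DESeq2 called 3 higher and the likelihood ratio test 1), and 2 over 7, Hk2 and Pfkp.

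Among 30 tested transcription factors of myeloid lineages, 7 were called higher and 1, Sox6, lower, with a median of 0.46. Id2, an inhibitor of E proteins, had 18.1, 10.2, 16.7 and 21.1 CPM in Y-WT and 234, 142, 218 and 385 CPM in Y-TTPdeltaARE (log2 fold change 3.89 ± 0.34, adjusted p = 3.3e-04). Irf8 rose by 3.25 ± 0.34 and Batf3 by 5.28 ± 0.59, and both belong to the dendritic list as well. Irf5, which acts below Toll-like receptors, had 68.7, 52.2, 60.6 and 67.8 CPM in Y-WT and 157, 119, 128 and 137 CPM in Y-TTPdeltaARE (1.118 ± 0.13, adjusted p = 0.0016). Of 13 genes of granulocyte-monocyte progenitors, 2 were called higher, Irf8 and Elane. The median was 0.89, with 12 positive and 1 negative log2 fold change. Elane, the neutrophil elastase gene, was also the only called gene of 23 tested neutrophil genes, at 13.5, 15.5, 33.7 and 19.1 CPM in Y-WT and 133, 65.5, 118 and 158 CPM in Y-TTPdeltaARE (2.53 ± 0.34, adjusted p = 0.0036). The 23 neutrophil genes had a median of 1.01, with 20 positive and 3 negative log2 fold changes. In the HSC identity list 1 of 28 was called higher, Sult1a1, and 0 lower, with a median of 0.15.

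The genes called lower include 3 of platelets and 2 of endothelium, types that share genes with stem cells. Of 27 tested megakaryocyte and platelet genes, 0 were called higher and 3 lower, with a median of -0.42. Itga2b had 77.4, 126, 108 and 107 CPM in Y-WT and 61.4, 50.2, 68.1 and 42.8 CPM in Y-TTPdeltaARE (log2 fold change -0.91 ± 0.18, adjusted p = 0.0358). It was not called without replicate 4 (adjusted p = 0.0583). Gp5, a glycoprotein of the platelet receptor for von Willebrand factor, fell by 0.85 ± 0.18, and Rab27b, which serves granule release, by 0.93 ± 0.14. With single libraries left out, Gp5 lost the adjusted p of 0.05 in 7 of 8 cases, Itga2b in 6 and Rab27b in 0. Rab27b had 20.3, 20.4, 19.7 and 18.5 CPM in Y-WT and 8.23, 10.5, 11.6 and 11.2 CPM in Y-TTPdeltaARE. The 7 libraries gave 4 lower genes, Gp5, Rab27b, Tbxa2r and Gng11. For Tbxa2r replicate 4 lay within the WT range, at 33.0 CPM against 18.0 to 20.6 in the other mutant libraries, and for Gng11 above it, at 45.2 CPM against 19.1 to 26.5. Of 25 tested endothelial genes 2 were called lower and 0 higher, Tek and Tie1 (-0.68 ± 0.14), with a median of -0.24 that moved to -0.07 over 7 libraries. The signs of the endothelial list were split, since 12 genes had a positive and 13 a negative log2 fold change over 8 libraries. Its summed CPM was lower in every mutant library, at 1679 to 1809 against 2087 to 2311 in Y-WT. Tie1 lost the adjusted p of 0.05 in 7 of 8 leave-outs and Tek in 0. At an unadjusted p under 0.05, 10 megakaryocyte genes were lower and 0 higher, and 8 endothelial genes were lower and 2 higher.

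Genes of lymphoid, basophil and erythroid cells also rose in part. Of 27 tested T-cell, NK-cell and ILC genes, 5 were called higher and 0 lower in both fits, and the summed CPM of the list lay between 295 and 382 in Y-WT and between 431 and 625 in Y-TTPdeltaARE. Klrd1, which encodes CD94 of NK cells, had 0.491, 0.544, 0.353 and 0.128 CPM in Y-WT and 8.58, 8.48, 7.65 and 8.40 CPM in Y-TTPdeltaARE (log2 fold change 4.45 ± 0.38, adjusted p = 2.9e-04), and Klrk1, which encodes NKG2D, rose by 4.05 ± 0.40. The mutant values of Klrd1 were close to each other. Lck, a kinase of T cells, rose by 0.76 ± 0.12. Cd3e and Cd8a, T-cell antigens named after their values were seen, were under the logCPM limit, and Cd8a did not overlap between the groups (0.0921, 0.218, 0.206 and 0.204 CPM in Y-WT and 2.68, 0.573, 1.29 and 2.43 CPM in Y-TTPdeltaARE). Of 30 tested B-cell and plasma cell genes 3 were called higher over 8 libraries (Cd22, Fcrl1 and Rag2) and 1 over 7, and the summed CPM overlapped between the groups, from 4890.1 to 66856 in Y-WT and from 4154 to 28471 in Y-TTPdeltaARE. Of 20 basophil, mast cell and eosinophil genes, 3 were called higher and 0 lower, with Ms4a2, a chain of the IgE receptor, at 2.83, 2.96, 3.82 and 1.58 CPM in Y-WT and 25.7, 6.53, 15.9 and 7.85 CPM in Y-TTPdeltaARE. With single libraries left out, Ms4a2 lost the adjusted p of 0.05 in 6 of 8 cases, Hdc in 5 and Ear2 in 2, and with the HSC libraries in the fit the adjusted p of Ms4a2 was 0.14. The list's summed CPM lay between 68.7 and 132 in Y-WT and between 183 and 556 in Y-TTPdeltaARE, while the neutrophil and erythroid sums overlapped between the groups. Of 25 erythroid genes, 4 were called higher and 0 lower, among them Hbb-bt (1.99 ± 0.28). None of 8 tested lineage antigens of the sort was called by edgeR, DESeq2 or the likelihood ratio test, and 0 had an unadjusted p under 0.05 within the other limits. Only 4 of the 8 were over the logCPM limit, 7 of 8 had a positive log2 fold change, and the list median was 1.00 (1.196 over 7 libraries). What such cells add to the changes above was not tested.

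Whether these effects differed from those in HSCs was tested as an interaction of genotype and cell type over the 16 young libraries. Of 26337 genes tested, 113 passed (0.429%), 101 with a larger log2 fold change in MPP3 cells and 12 with a smaller one. Of the 300 genes called higher in MPP3 cells 90 passed, and of the 26 called lower 4 passed. These genes, and the leading genes below, were selected for their effect in MPP3 libraries that also enter this test. Their share that passed is therefore raised by the selection and cannot be set against that of all genes. Among the 20 leading genes, Tlr13, Gpr141b, Cxcl9, Plbd1 and Olfm1 passed on the higher side and Tgfbr3, Sox6 and Prx on the lower side. Cxcl9 had a log2 fold change of 0.41 in HSCs, and the difference was 4.30 (adjusted p = 6.3e-04). Plbd1 had 0.21 in HSCs and a difference of 4.24 (adjusted p = 0.0017). Klf2 was near 0 in HSCs (0.09), with a difference of 3.77 (adjusted p = 5.0e-04). In these genes the rise in MPP3 cells was larger than in HSCs. For Zfp36 a difference was not detected, with log2 fold changes of 1.80 in MPP3 cells and 0.96 in HSCs (difference 0.77, adjusted p = 0.43). Ccl8 (4.59 and 4.24) and Gimap7 (1.32 and 1.18) likewise did not pass. Their effects in HSCs did not pass on their own either (edgeR adjusted p = 0.238 for Zfp36, 0.369 for Ccl8 and 0.207 for Gimap7). Of the 300 genes called higher in MPP3 cells, 3 had an edgeR adjusted p under 0.05 in HSCs, among them Ccl3 and Hbb-bt. Ccl3 rose by 1.26 in MPP3 cells and 1.66 in HSCs, and Hbb-bt by 1.99 and 1.60 (edgeR adjusted p = 0.0285 in HSCs for each). Their differences of -0.50 and 0.30 did not pass. The difference for Ccl8 had an SE of 1.86. On simulated counts the interaction test recovered 18% of 2-fold and 0% of 1.5-fold differences, so a difference that did not pass does not show equal effects. The cell types carry separate runs of sample numbers, so cell type and set of libraries cannot be told apart in the levels, and the test compares genotype effects within each set.

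**Figure D5:**
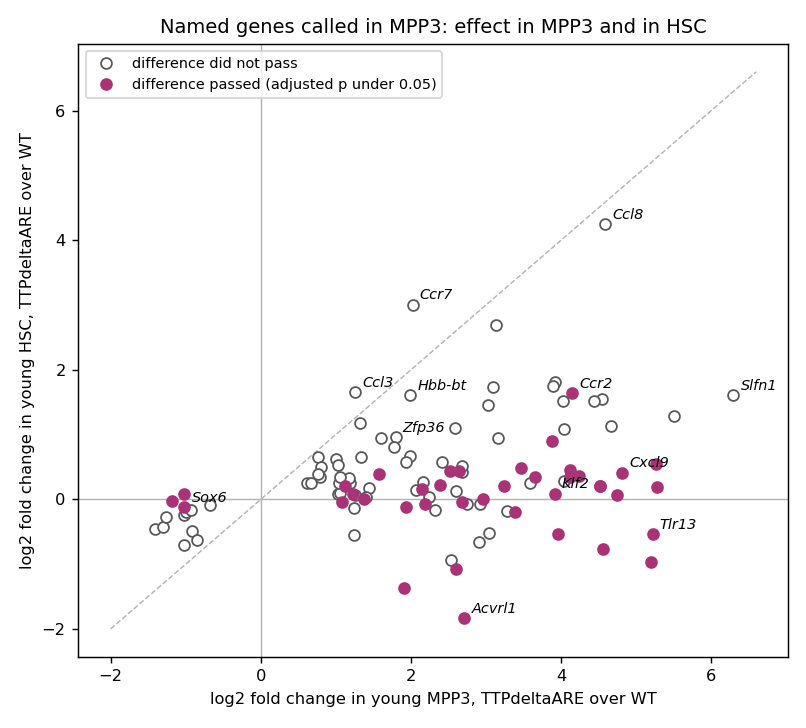
Log2 fold change, TTPdeltaARE over WT, in young MPP3 cells (x axis) and in young HSCs (y axis) of the named genes called in MPP3 cells. Filled points passed the test of the difference, open points did not, and the dashed line marks equal effects. Cxcl9, Klf2 and Tlr13 lie far below the line, while Ccl8 lies close to it. The difference for Ccl8 has an SE of 1.86, and its effect in HSCs did not pass (edgeR adjusted p = 0.369).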

How the data were processed

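Poly(A) RNA of sorted cells was sequenced. The authors used Trim Galore! and Cutadapt for trimming, STAR for alignment to mm10, and featureCounts with GENCODE M22 for counting. The deposited values are raw counts per gene. Strand and the handling of multimapping reads are not given in the sources used here. The labels and the study's methods name different library kits. Counts of 55376 genes were read for the 8 MPP3 libraries, scaled by TMM and filtered with filterByExpr (minimum count 10, minimum total 15). Genotypes were compared with edgeR 4.0.16 (glmQLFTest, R 4.3.3), with Benjamini-Hochberg adjustment over all genes tested. The limits for a call were those of the study's methods: over 1.2-fold, over 1.5 in average logCPM and under 0.05 in adjusted p. SEs were computed as the log2 fold change over the square root of F. Alternatives used DESeq2 1.42.0, the edgeR likelihood ratio test, other scaling factors and filters, a replicate block, leaving out libraries one by one, and a fit that held the young HSC libraries too. The procedure was tested on simulated counts for 200 changed genes, of which 67% were recovered over 8 libraries (8% at 1.5-fold, 70% at 2-fold, 92% at 4-fold).

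The lists were chosen with earlier results of these data known, after gene names in the study's tables had been seen. Named genes are the TTP family, the 10 called genes with the largest log2 fold change in each direction whose CPM did not overlap, and up to 5 called members of each list by smallest p, or, where none was called, its 3 most abundant members. Immunoglobulin and T-cell receptor segments, dendritic and MHC class II genes and models without a symbol were left out of the 10. Genes named outside this rule (Kit, Flt3, Cd3e, Cd8a, Isg15, Ifit1, Tnf, Il1b, Iigp1, Ifi203, Ifi213, Ifi214, Mndal, Aim2, Tyrobp, Fcer1g, Fcgr1, Tmsb4x and those called over 7 libraries alone) were chosen after their values were seen. Positions are from GENCODE M21 (GRCm38), promoters from RefSeq (GRCm38.p6). Some genes that the rule names are not reported here.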

Additional observations from a re-analysis of the deposited data

Results flagged for a closer look

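In 116 sets of 4 libraries, the distance of the highest or lowest library to its nearest neighbour was set against the range of the set, with Dixon's 95% limit, which chance passes in about 1 in 20 sets. It was passed by 5 sets. For Cxcl9 in Y-WT, replicate 1 was the lowest, with a gap of 0.876 of the range. For Klhl4 in Y-TTPdeltaARE, replicate 2 was the highest (0.969). Replicate 4 was the highest Y-TTPdeltaARE library in the summed CPM of T-cell, NK-cell and ILC genes (0.862) and the lowest in that of integrins (0.862). Y-WT replicate 2 was the lowest in the summed CPM of chemokine receptors (0.866).

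The genotype effect differed between MPP3 cells and HSCs, by the interaction test, for 8 of the leading genes. The leading genes were selected for their effect in the MPP3 libraries, which also enter this test. The log2 fold change in MPP3 cells exceeded that in HSCs by 5.68 for Tlr13, 6.03 for Gpr141b, 4.30 for Cxcl9, 4.24 for Plbd1 and 4.22 for Olfm1. It was lower in MPP3 cells by a difference of -1.27 for Tgfbr3, -0.997 for Sox6 and -1.23 for Prx.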

How the results depend on the processing

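Of the genes called higher over 8 libraries (300), DESeq2 gave 552 and the likelihood ratio test 462, and leaving out single libraries gave 179 (without Y-TTPdeltaARE replicate 1) to 309. Of those called lower (26), DESeq2 gave 183, the likelihood ratio test 78, no filter on low counts 67, a fold change over 2 gave 8, and the HSC libraries in the fit gave 132; leaving out single libraries gave 4 (without Y-WT replicate 2) to 38, with 16, 7 and 5 without Y-WT replicates 1, 3 and 4 and 6 and 14 without Y-TTPdeltaARE replicates 1 and 2. Over 7 libraries, DESeq2 gave 635 higher and 331 lower, and for lower genes (38) the likelihood ratio test gave 97, no filter 68, a fold change over 2 gave 6 and the HSC libraries in the fit 63. Leaving out a further library gave 139 (Y-TTPdeltaARE replicate 1) to 309 higher, with 192 without Y-TTPdeltaARE replicate 2, and 7 to 45 lower. For genes whose effect differed between MPP3 cells and HSCs (113), DESeq2 gave 304, the likelihood ratio test 202, and left-out libraries 66 (Y-WT HSC replicate 4) to 132. The number of lower genes is thus the least stable. The cause was not tested.

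Same-numbered libraries did not deviate together (r = 0.0159, -0.0922, 0.0492 and -0.0844 for replicates 1 to 4), so the numbers were not taken as pairs. With the replicate block, 234 genes were called higher and 9 lower over 8 libraries, 240 and 11 over 7, and 87 differed between the cell types. Of 111 called named genes under 16 alternatives each, 1595 of 1776 values kept direction and call, 181 lost the call and 0 reversed. Reversed values came from genes that were not called: the log2 fold change of Gbp7 lay between -0.085 and 0.20 (negative without Y-TTPdeltaARE replicate 1 or 2), of Cdk4 between -0.12 and 0.16 (negative without Y-TTPdeltaARE replicate 4) and of Pkm between -0.14 and 0.042 (positive without Y-WT replicate 2) with single libraries left out. Low genes such as Slfn1 and Ccl8 rest on few counts in Y-WT.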

Other observations

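Gene families that were not among the lists were looked at after their values had been seen. All 4 tested Phf11 genes, a family of PHD finger proteins, were called higher over 8 and over 7 libraries, with a median log2 fold change of 1.30. Phf11a had 0.860, 0.761, 1.18 and 1.123 CPM in Y-WT and 20.9, 6.56, 15.4 and 21.0 CPM in Y-TTPdeltaARE. Phf11b, the most abundant, had 23.4, 17.5, 12.4 and 20.4 CPM in Y-WT and 53.03, 44.3, 48.5 and 60.7 CPM in Y-TTPdeltaARE. Neither gene overlapped between the groups. The 4 genes are similar copies, so the split between them is uncertain.

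Of 42 tested G protein-coupled receptors and related genes named Gpr with a number, 10 were called higher and 0 lower over 8 libraries (9 and 0 over 7), with a median of 0.32. One of the 10, Gpr33, is on the dendritic list. Gpr183, which guides lymphoid and dendritic cells along oxysterols, had 2.40, 0.789, 2.67 and 1.43 CPM in Y-WT and 16.6, 7.82, 12.6 and 16.9 CPM in Y-TTPdeltaARE (log2 fold change 2.89). Gpr65, a proton sensor, had 45.4, 51.6, 43.0 and 44.9 CPM in Y-WT and 81.5, 87.0, 63.5 and 90.8 CPM in Y-TTPdeltaARE (0.80).

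Il1b, the interleukin 1 beta gene, belongs to the list of the TTP family and transcripts named as TTP targets. It had 0.0614, 0.109, 0.0588 and 0 CPM in Y-WT and 13.0, 0.544, 4.71 and 1.25 CPM in Y-TTPdeltaARE. Its average logCPM of 1.33 was under the limit for a call (log2 fold change 6.34, edgeR adjusted p = 0.0213), and its mutant libraries differed widely.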
